A study of Drosophila melanogaster with 16 samples.

Results

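The genes described here are those that license chromosomal DNA for replication and run the replication fork. They were taken by name from a list of 41 gene symbols, keeping each symbol that a probe set of the array carries alone. This gave 33 genes, each with 1 probe set, of 11982 genes measured in all. The other 8 listed symbols are not analysed here: Mcm7, lat, Orc6, geminin, CDC45L, PolD1, RpA-70 and RnrS. CDC45L is an older name of Cdc45, which is among the 33. The gene listed as RpA-70 stands in the probe annotation under the name RPA1, and its values are given once below as lying outside the list.

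RNA of female Drosophila midguts was measured on 16 Affymetrix Drosophila Genome 2.0 arrays, 4 for each of 4 genotypes. The first carries RAF GOF with Notch DN (RafGOF NotchDN, or NotchDN below), the second RAF GOF with overexpressed Notch IC (RafGOF NotchIC, or NotchIC below), the third RAF GOF alone (RafGOF), and the fourth is WT. Both Notch genotypes therefore also carry RAF GOF, and no sample used here has a Notch construct without it. GOF commonly stands for gain of function, DN for dominant negative and IC for intracellular domain, but the labels do not spell them out, and no source used here gives the driver, the cells that express the constructs, the age of the flies or the number of midguts per array.

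Every chromosome is copied once per cycle because origins are first licensed and then fired. The origin recognition complex marks an origin, Cdc6 and Cdt1 load the Mcm helicase on it, and Cdc45 and the GINS complex turn that helicase into the moving fork. Polymerase alpha with its primase starts each strand, a clamp loader places the sliding clamp PCNA, polymerases delta and epsilon extend the strands, and Fen1 and DNA ligase join the lagging strand. In the fly midgut, intestinal stem cells divide by mitosis and enterocytes become polyploid by repeated rounds of S phase without division, and both use this machinery. Raf is the kinase below Ras in the EGFR pathway, which drives division of the stem cells, and Notch signalling directs the daughters of a stem cell towards the enterocyte fate.

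Signals are RMA values on the log2 scale, so a difference of 1 is a change of 2 times. Array medians lay between 5.48 and 5.70, and arrays of one group correlated with each other at 0.979 to 0.995 over all tested probe sets. The midgut label was checked against 6 measured markers of midgut identity, whose mean on single arrays was 10.85 to 11.34 in NotchDN, 11.46 to 11.76 in NotchIC, 11.12 to 11.65 in RafGOF and 11.07 to 11.34 in WT midguts. The intestinal transcription factor GATAe averaged 9.85 in NotchDN, 10.00 in NotchIC, 9.87 in RafGOF and 9.92 in WT midguts. The germline genes vas and osk, which mark ovary carried along by dissection, lay below the array medians in every group. They do not stand for all 30 measured ovary and germline genes, whose mean on single arrays was 5.33 to 5.66, overlapping the array medians. Among the 6 midgut markers the transcription factor cad was lower than in WT in the other genotypes, with changes of -0.99 in NotchDN, -0.67 in NotchIC and -1.06 in RafGOF midguts. The septate junction gene Ssk was higher than in WT in NotchIC and RafGOF midguts, by 0.96 and 0.89, and mesh and Tsp2A, of the same junctions, in NotchIC midguts, by 0.98 and 1.08. In NotchDN over NotchIC midguts Ssk changed by -0.73 (adjusted p = 0.0209). With the replicate number as a block, mesh and Tsp2A also rose in RafGOF over WT and fell in NotchDN over NotchIC midguts, and Ssk and Tsp2A fell in NotchDN over RafGOF midguts. Whole midguts were measured, so more cells of a replicating type and more RNA per cell cannot be told apart. A change was called at an adjusted p under 0.05 in a limma fit over all 18769 non-control probe sets and all 16 arrays. Values after ± are standard errors of that fit, with 4 arrays in each group.

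Most of the 33 genes lay in one order across the genotypes: the group means fell in the order NotchDN, RafGOF, NotchIC, WT for 27 of 33 genes, while 12.9% of all genes were so ordered. The highest group mean was that of NotchDN midguts for 31 of 33 genes and for 25.4% of all genes. Orc4 had its highest mean in RafGOF midguts and Psf3 in WT midguts. The exceptions to the order of all groups were Orc4, PolA1, PolA2 and the GINS subunits Psf1, Psf2 and Psf3. Averaged over the 33 genes, the signal of single arrays ranged from 7.5 to 8.15 in NotchDN, from 6.74 to 6.95 in NotchIC, from 7.25 to 7.86 in RafGOF and from 6.14 to 6.34 in WT midguts. The NotchDN and RafGOF arrays overlapped in this mean, and each other pair of groups was separate.

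**Figure D1:**
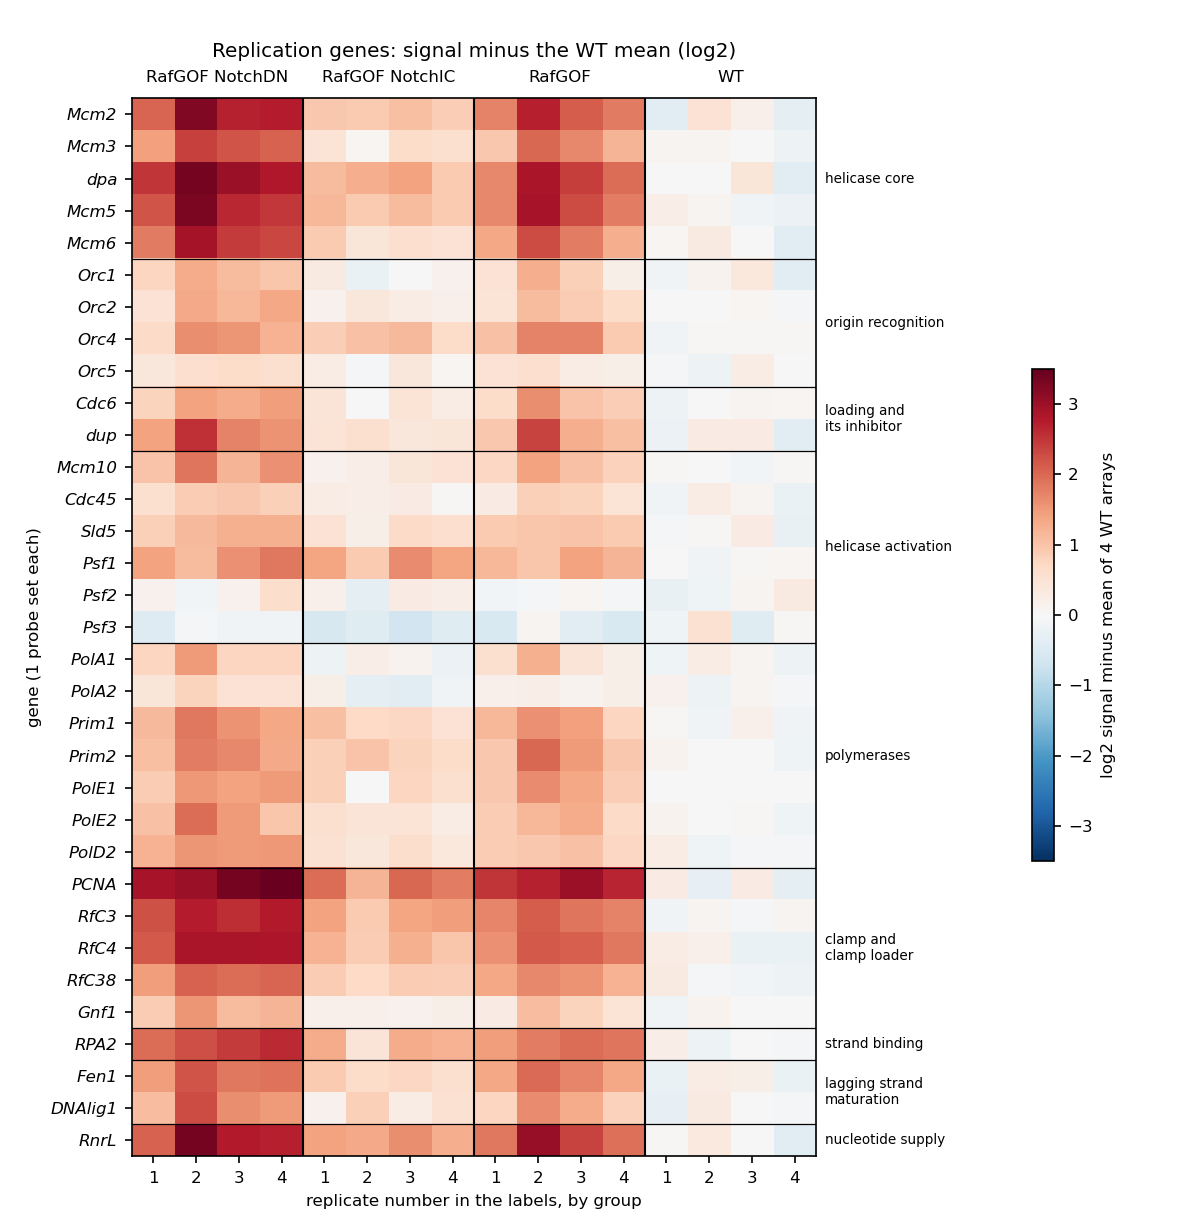
Signal of each of the 33 replication genes on each of the 16 arrays, as the log2 signal minus the mean of the 4 WT arrays. Columns are arrays grouped by genotype, rows are genes grouped by role, and red marks signal above the WT mean: the NotchDN and RafGOF columns are the darkest, and Psf2 and Psf3 stay pale throughout.

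In RafGOF over WT midguts, 29 of the 33 genes rose, none fell and 4 did not pass, against 14.9% of all genes called higher and 10.1% called lower. Without adjustment for multiple tests no member fell at p under 0.05 in the limma fit either. The median change of the 33 genes was 1.21 (log2), against -0.0032 over all genes. Of the 29, 21 rose by 2 times or more, as 3.76% of all genes did. The arrays of both groups did not overlap for 27 genes, against 15.6% of all genes that were higher without overlap.

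All 5 measured subunits of the Mcm helicase rose. The largest rise was that of dpa, which encodes the Mcm4 subunit; here and below the 4 values of a group stand in the order of the replicate numbers. Its log2 signals were 7.45, 8.30, 7.98 and 7.75 in NotchDN midguts, 6.07, 6.21, 6.36 and 5.88 in NotchIC midguts, 6.63, 7.80, 7.39 and 6.92 in RafGOF midguts and 4.93, 4.96, 5.38 and 4.55 in WT midguts. Every RafGOF array lay above every WT array, and dpa was higher in RafGOF midguts by 2.23 ± 0.24, which is 4.69 times (adjusted p = 1.19e-05). On every WT array the signals of dpa, Orc2, Orc4, Cdc6, Mcm10 and Prim2 lay below the array median, as did Cdc6 on every NotchIC array, and the values used here carry no detection call. The other subunits rose by 2.15 for Mcm5, 2.10 for Mcm2, 1.67 for Mcm6 and 1.46 for Mcm3.

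The 4 measured subunits of the origin recognition complex also rose, by less. Orc4 changed most, with log2 signals of 5.75, 6.72, 6.62 and 6.30 in NotchDN midguts, 5.94, 6.10, 6.22 and 5.72 in NotchIC midguts, 6.12, 6.83, 6.81 and 5.99 in RafGOF midguts and 4.95, 5.13, 5.13 and 5.13 in WT midguts. The 2 genotypes separated fully, at 1.35 ± 0.22 or 2.56 times (adjusted p = 0.000318). Orc2 rose by 0.77, Orc1, an ATP-binding subunit, by 0.70 and Orc5 by 0.39. Of the 29 calls, these last 2 were the ones that ended with the omission of a single array. Orc1 did not pass without RafGOF replicate 2 or 3 or WT replicate 1 or 4 (adjusted p up to 0.098), and Orc5 did not pass without RafGOF replicate 1 or 2 or WT replicate 1, 2 or 4 (adjusted p up to 0.12). Neither passed with only the arrays of both groups or with all arrays numbered 2 left out. Orc5 also did not pass after quantile normalization (adjusted p = 0.067) or with intensity trend and robust moderation. Nor did it with the replicate number as a block and the arrays numbered 2 left out.

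Both measured loading factors rose. The fly Cdt1, encoded by dup, had log2 signals of 7.37, 8.53, 7.72 and 7.54 in NotchDN midguts, 6.45, 6.53, 6.37 and 6.40 in NotchIC midguts, 6.92, 8.34, 7.23 and 7.01 in RafGOF midguts and 5.77, 6.25, 6.27 and 5.60 in WT midguts. RafGOF and WT arrays did not overlap, and the difference was 1.40 ± 0.29 or 2.65 times (adjusted p = 0.00231). Cdc6, the ATPase that brings the helicase to the origin, rose by 1.02 ± 0.19. Geminin, which binds Cdt1 and prevents a repeated licensing, is among the genes not analysed here.

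Of the 6 factors that activate the helicase, 4 rose. Psf1, a subunit of the GINS complex, had log2 signals of 7.35, 7.05, 7.54 and 7.78 in NotchDN midguts, 7.32, 6.84, 7.58 and 7.30 in NotchIC midguts, 7.09, 6.89, 7.34 and 7.12 in RafGOF midguts and 5.94, 5.81, 5.98 and 6.0 in WT midguts. It was 2.26 times higher in RafGOF than in WT midguts (1.18 ± 0.16, adjusted p = 9.18e-05), with no overlap. Mcm10, which helps the helicase to start unwinding, rose by 1.0, the GINS subunit Sld5 by 0.95 and Cdc45 by 0.60. The remaining GINS subunits did not pass: the change was -0.032 for Psf2 (95% interval -0.38 to 0.31) and -0.34 for Psf3 (95% interval -0.72 to 0.043). After quantile normalization Psf3 fell, at -0.46 (adjusted p = 0.0439). Each subunit was measured by 1 probe set, and the difference between subunits was not tested.

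Among the polymerases, 5 of 7 genes rose. Prim2, the large primase subunit, changed most, with log2 signals of 6.30, 7.03, 6.91 and 6.56 in NotchDN midguts, 6.05, 6.23, 6.01 and 5.87 in NotchIC midguts, 6.18, 7.25, 6.71 and 6.17 in RafGOF midguts and 5.36, 5.25, 5.23 and 5.08 in WT midguts. All RafGOF arrays exceeded all WT arrays, by 1.34 ± 0.21 or 2.54 times in the mean (adjusted p = 0.000259). The small primase subunit Prim1 rose by 1.24, the polymerase epsilon subunits PolE1 and PolE2 by 1.21 and 1.0, and the polymerase delta subunit PolD2 by 0.89. Both polymerase alpha subunits missed the threshold, with 0.62 ± 0.21 for PolA1 (adjusted p = 0.0542) and 0.18 ± 0.12 for PolA2 (adjusted p = 0.377). With the replicate number as a block, PolA1 passed (adjusted p = 0.000825). It also passed after quantile normalization, with all arrays numbered 2 left out, and without WT replicate 2 or RafGOF replicate 4. After median centring or with only the arrays of both groups it did not.

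PCNA, the sliding clamp, showed the largest rise of the 33 genes. Its log2 signals were 10.40, 10.54, 10.87 and 10.97 in NotchDN midguts, 9.47, 8.70, 9.52 and 9.30 in NotchIC midguts, 10.02, 10.19, 10.51 and 10.17 in RafGOF midguts and 7.81, 7.23, 7.80 and 7.2 in WT midguts. The lowest RafGOF array exceeded the highest WT array by a wide margin, and the difference was 2.71 ± 0.20 or 6.56 times (adjusted p = 4.55e-07). All 4 measured clamp loader genes rose with it, RfC4 by 1.92, RfC3 by 1.86, RfC38 by 1.46 and Gnf1, the large subunit, by 0.66.

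RPA2, a subunit of the protein that coats single-stranded DNA, had log2 signals of 9.09, 9.41, 9.59 and 9.75 in NotchDN midguts, 8.43, 7.61, 8.43 and 8.35 in NotchIC midguts, 8.60, 8.92, 9.11 and 9.02 in RafGOF midguts and 7.37, 6.96, 7.16 and 7.10 in WT midguts. RafGOF and WT arrays were separate, at 1.77 ± 0.19 or 3.41 times (adjusted p = 9.36e-06). RPA1, the partner that lies outside the list, changed by 0.50 ± 0.29 and did not pass (adjusted p = 0.278), and passed with the replicate number as a block (adjusted p = 0.0122). NotchDN midguts differed from RafGOF midguts by 0.32 and NotchIC midguts by -0.44, and neither passed. NotchDN over NotchIC gave 0.77, which did not pass (adjusted p = 0.125) but did with the block (adjusted p = 0.00142).

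Both genes of lagging strand maturation rose. Fen1, the flap nuclease, had log2 signals of 7.33, 8.05, 7.70 and 7.78 in NotchDN midguts, 6.79, 6.5, 6.60 and 6.42 in NotchIC midguts, 7.23, 7.86, 7.56 and 7.23 in RafGOF midguts and 5.62, 6.14, 6.07 and 5.63 in WT midguts. The groups did not overlap and differed by 1.6 ± 0.18 or 3.04 times (adjusted p = 1.41e-05). DNAlig1, the ligase that seals the fragments, rose by 1.13.

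RnrL, the large subunit of the ribonucleotide reductase that makes deoxynucleotides, had log2 signals of 8.63, 9.91, 9.34 and 9.28 in NotchDN midguts, 7.98, 7.88, 8.19 and 7.83 in NotchIC midguts, 8.4, 9.62, 8.93 and 8.50 in RafGOF midguts and 6.60, 6.90, 6.55 and 6.18 in WT midguts. It was 4.94 times higher in RafGOF than in WT midguts (2.30 ± 0.27, adjusted p = 2.27e-05), without overlap.

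**Figure D2:**
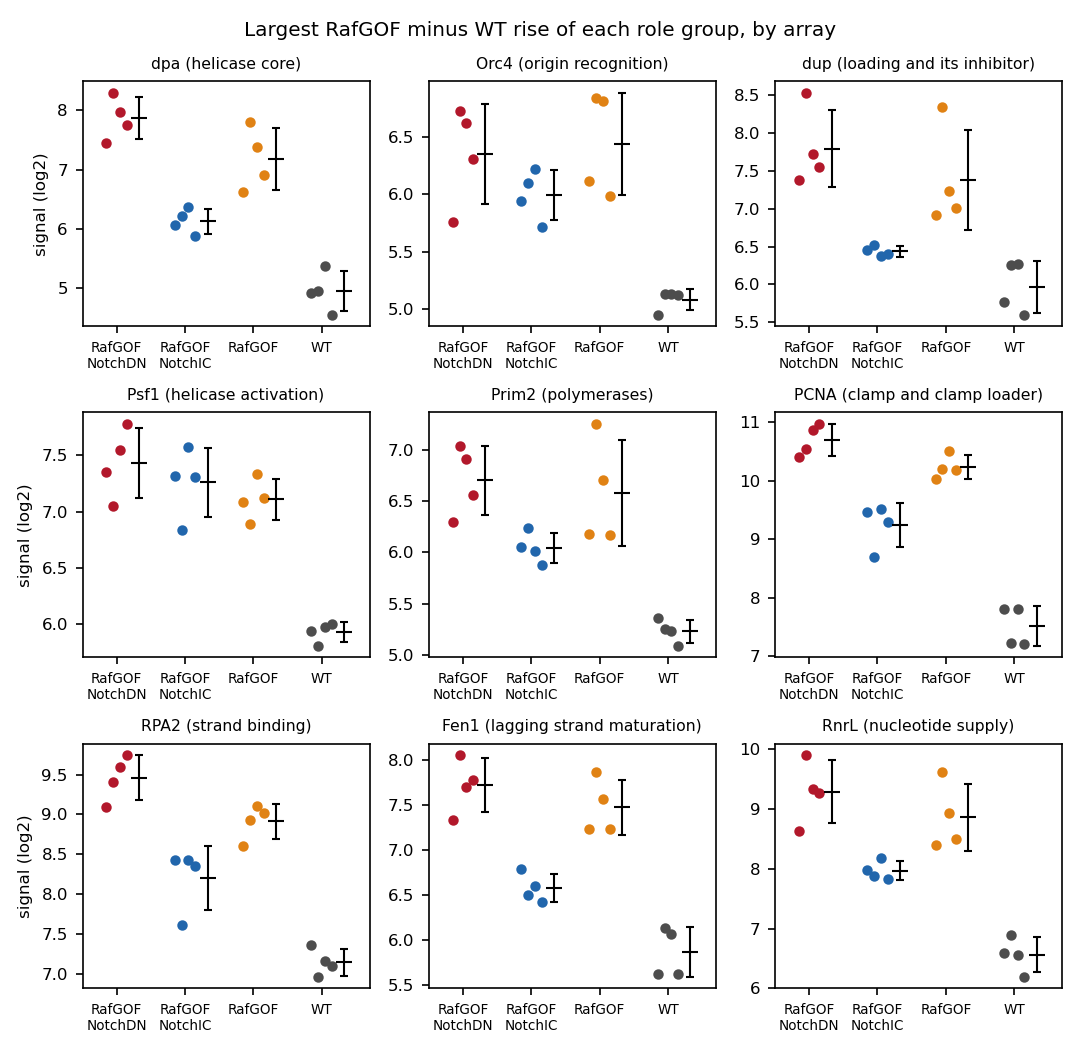
Log2 signal of the gene with the largest RafGOF over WT rise in each role group. Points are single arrays, with replicates 1 to 4 from left to right in each genotype, and the black marks give the mean ± SD of 4 arrays. RafGOF points lie above WT points in all 9 panels, while NotchIC points lie below RafGOF points for PCNA, RPA2, Fen1, RnrL, dpa and dup but overlap them for Orc4, Psf1 and Prim2.

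In NotchIC over RafGOF midguts 9 of 33 genes fell, none rose and 24 did not pass, against 1.61% of all genes called lower and 1.40% called higher. No member rose at an unadjusted p under 0.05 in the limma fit. The change was negative for 31 of 33 genes, with a median of -0.63 against -0.015 over all genes, and all arrays of NotchIC lay below all arrays of RafGOF for 22 genes, against 4.92% of all genes. With the replicate number as a block, 23 genes fell, against 4.55% of all genes in that fit.

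The 9 genes were the 5 Mcm helicase subunits, PCNA, the clamp loader subunits RfC4 and RfC38, and Fen1. Mcm2 fell most, with log2 signals of 8.28, 9.47, 8.92 and 8.98 in NotchDN midguts, 7.19, 7.16, 7.28 and 7.10 in NotchIC midguts, 7.98, 8.97, 8.36 and 8.05 in RafGOF midguts and 5.86, 6.73, 6.43 and 5.93 in WT midguts. NotchIC arrays lay within a narrow band below every RafGOF array, and the change was -1.16 ± 0.25, or 2.23 times lower (adjusted p = 0.0251). The other Mcm subunits fell by 1.13 for Mcm5, 1.07 for Mcm6, 1.05 for dpa and 1.01 for Mcm3. These 5 were the members that fell by 2 times or more, as 0.467% of all genes did.

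PCNA was lower in NotchIC midguts by 0.98 ± 0.20 (adjusted p = 0.0168) and Fen1 by 0.89 ± 0.18 (adjusted p = 0.0139), in both cases with no overlap between the arrays listed above. RfC4 changed by -0.85 and RfC38 by -0.63. Among genes that did not pass, the changes were -0.94 for dup, -0.89 for RnrL, -0.73 for Cdc6 and -0.71 for RPA2, with adjusted p of 0.126, 0.113, 0.0649 and 0.0634. These 4 passed with the replicate number as a block, with adjusted p of 0.00917, 0.0148, 0.0257 and 0.0207. Psf1 and Psf2 were the only members with a positive change, 0.15 (95% interval -0.19 to 0.49) and 0.12 (95% interval -0.22 to 0.47).

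These 9 calls depended on single arrays and on the scaling. Without RafGOF replicate 3 none of the 33 genes passed. Without RafGOF replicate 2 or NotchIC replicate 2 just 1 did, and without NotchIC replicate 3 or 4 there were 4. Without RafGOF replicate 1, 12 passed. Without RafGOF replicate 3, 27 genes were still lower at an unadjusted p under 0.05 in the limma fit. There were 25 without RafGOF replicate 2 and 28 without NotchIC replicate 2, against 28 in the main fit. The change was negative for 31 of 33 genes in each of these fits. With all arrays numbered 2 left out no member passed, against 0.367% of all genes, while 23 had an unadjusted p under 0.05 and 5 passed with the replicate number as a block. After quantile normalization 15 genes passed, after median centring 2, and with only the arrays of both groups 5.

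Some of the genes remained above WT in NotchIC midguts. In NotchIC over WT midguts 16 of 33 genes rose, none fell and 17 did not pass, against 9.98% of all genes called higher and 6.77% called lower, and the median change was 0.49. Of the 9 genes that were lower than in RafGOF, 7 still passed above WT, among them PCNA at 1.73 ± 0.20 (adjusted p = 5.21e-05), dpa at 1.18 ± 0.24 (adjusted p = 0.00424) and RfC4 at 1.07 ± 0.18 (adjusted p = 0.00112). Mcm6 and Mcm3 did not pass above WT, at 0.61 and 0.45 with adjusted p of 0.118 and 0.235. Mcm6 did pass with only the arrays of both groups (adjusted p = 0.0376) and with all arrays numbered 2 left out (adjusted p = 0.0226). Among the 7, Mcm2 did not pass above WT without WT replicate 1 or 4 or NotchIC replicate 3 (adjusted p up to 0.0712). Fen1 did not pass above WT without WT replicate 4 (adjusted p = 0.0507). The comparisons with RafGOF and with WT both use the NotchIC arrays, and the share of all genes called in both is not given here. Psf1, whose NotchIC and RafGOF arrays overlapped, was 2.51 times higher in NotchIC than in WT midguts (adjusted p = 8.35e-05). Without WT replicate 4 the count was 12. Psf3 was the one member with an unadjusted p under 0.05 for a fall, at -0.53 ± 0.18 (adjusted p = 0.0692), and it passed after quantile normalization (0.0102) and without WT replicate 3 (0.0266).

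Most changes in NotchDN over RafGOF midguts were small and positive, and few passed. In NotchDN over RafGOF midguts 2 of 33 genes rose, none fell and 31 did not pass, against 0.818% of all genes called higher and 0.551% called lower. No member fell at an unadjusted p under 0.05, and 13 were higher at that level. The change was positive for 32 of 33 genes, with a median of 0.37, and the exception was Orc4 at -0.087. This comparison and the NotchIC one share the RafGOF arrays, so the opposite signs of their changes are not independent.

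The genes that passed were PolD2 and RfC3. PolD2, a subunit of polymerase delta, had log2 signals of 8.50, 8.85, 8.80 and 8.83 in NotchDN midguts, 7.83, 7.69, 7.92 and 7.67 in NotchIC midguts, 8.18, 8.23, 8.32 and 8.01 in RafGOF midguts and 7.55, 7.15, 7.24 and 7.24 in WT midguts. Every NotchDN array was above every RafGOF array, at 0.56 ± 0.11 or 1.47 times (adjusted p = 0.019). RfC3, of the clamp loader, had log2 signals of 7.76, 8.29, 8.13 and 8.33 in NotchDN midguts, 6.96, 6.44, 6.91 and 7.0 in NotchIC midguts, 7.26, 7.66, 7.41 and 7.27 in RafGOF midguts and 5.42, 5.64, 5.48 and 5.62 in WT midguts. Its groups were also separate, at 0.72 ± 0.15 or 1.65 times (adjusted p = 0.0225). PCNA did not pass, at 0.47 ± 0.20 (adjusted p = 0.479), and its NotchDN and RafGOF arrays overlapped. The 95% interval of the PCNA change was 0.046 to 0.89, and that of Mcm2 was 0.032 to 1.11.

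With the replicate number as a block 6 genes rose, against 2.14% of all genes in that fit, and dpa, RfC4, Gnf1 and DNAlig1 joined the 2 above, with adjusted p of 0.0246, 0.0302, 0.0204 and 0.0329. Leaving out single arrays gave 0 to 3 genes: none passed without RafGOF replicate 4 or NotchDN replicate 2, 3 or 4, just 1 passed without RafGOF replicate 1 or 3, and 3 passed without RafGOF replicate 2 or NotchDN replicate 1. No gene passed after median centring or when only the arrays of both groups were fitted, where 10 were higher at an unadjusted p under 0.05 each time. Without the arrays numbered 2 there was 1, and after quantile normalization there were 4. At an unadjusted limma p under 0.05, 22 were higher with the block, 19 without the arrays numbered 2 and 17 after quantile normalization.

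The Notch genotypes differed from each other across most of the replication genes. In NotchDN over NotchIC midguts 27 of 33 genes rose, none fell and 6 did not pass, against 6.09% of all genes called higher and 5.47% called lower. No member fell at an unadjusted p under 0.05. All 33 changes were positive, with a median of 0.97 against 0.0067 over all genes, 29 genes showed no overlap of arrays (8.01% of all genes), and 16 rose by 2 times or more (1.79% of all genes). Leaving out single arrays gave 25 to 28 genes.

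All 5 Mcm subunits rose, Mcm6 most. Its log2 signals were 8.79, 9.88, 9.41 and 9.32 in NotchDN midguts, 7.89, 7.39, 7.55 and 7.48 in NotchIC midguts, 8.32, 9.25, 8.76 and 8.24 in RafGOF midguts and 7.04, 7.29, 6.96 and 6.58 in WT midguts. The NotchDN arrays lay far above the NotchIC arrays, at 1.78 ± 0.24 or 3.42 times (adjusted p = 0.000204). The other subunits rose by 1.74 for dpa, 1.73 for Mcm2, 1.64 for Mcm5 and 1.58 for Mcm3.

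In the origin recognition complex 2 of 4 genes rose. Orc1 had log2 signals of 6.62, 7.16, 6.96 and 6.82 in NotchDN midguts, 6.17, 5.64, 5.84 and 6.02 in NotchIC midguts, 6.37, 7.13, 6.69 and 6.07 in RafGOF midguts and 5.75, 5.99, 6.24 and 5.47 in WT midguts, and its NotchDN arrays were all above its NotchIC arrays (0.97 ± 0.21, adjusted p = 0.00833). Orc2 rose by 0.85. Orc4 and Orc5 did not pass, at 0.35 and 0.38 with adjusted p of 0.415 and 0.0723. Orc4 was the subunit with the largest RafGOF over WT change.

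Both loading factors rose. For dup the arrays given above did not overlap between NotchDN and NotchIC, and the difference was 1.35 ± 0.29 (adjusted p = 0.00702), while Cdc6 rose by 0.94. Of the helicase activators 3 of 6 rose, led by Mcm10, with log2 signals of 6.14, 7.02, 6.33 and 6.73 in NotchDN midguts, 5.28, 5.39, 5.57 and 5.64 in NotchIC midguts, 5.87, 6.56, 6.16 and 5.96 in RafGOF midguts and 5.19, 5.15, 5.04 and 5.18 in WT midguts. Its groups were separate, at 1.09 ± 0.18 (adjusted p = 0.000953). Sld5 rose by 0.63 and Cdc45 by 0.61, and the Cdc45 call was lost after median centring. Psf1, Psf2 and Psf3 did not pass, at 0.17, 0.12 and 0.34, with 95% intervals of -0.17 to 0.51, -0.23 to 0.46 and -0.04 to 0.73.

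The polymerases rose in 6 of 7 cases. PolD2 was first among them, at 0.97 ± 0.11 with separate arrays (adjusted p = 3.69e-05). PolA1 and PolA2, which had missed the threshold in RafGOF over WT midguts, rose by 0.95 and 0.72 (adjusted p = 0.00982 and 0.00169). PolE2 rose by 0.92, PolE1 by 0.79 and Prim1 by 0.72. Prim2 did not pass, at 0.66 ± 0.21 (adjusted p = 0.0675), and passed with the replicate number as a block (adjusted p = 0.00853), as did Orc5 (adjusted p = 0.0386). The calls of Prim1 and PolE1 were lost without NotchDN replicate 2 or 3 and with all arrays numbered 2 left out. That of Prim1 was also lost without NotchIC replicate 4, and that of PolE1 without NotchDN replicate 4 or NotchIC replicate 2. PolE1 was lost as well after median centring and with only the arrays of both groups.

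The clamp and its loader rose throughout. RfC4 led them, with log2 signals of 8.87, 9.59, 9.58 and 9.56 in NotchDN midguts, 7.95, 7.61, 7.97 and 7.69 in NotchIC midguts, 8.32, 8.89, 8.84 and 8.57 in RafGOF midguts and 6.99, 6.92, 6.51 and 6.51 in WT midguts. NotchDN and NotchIC arrays were separate by 1.6 ± 0.18 or 3.02 times in the mean (adjusted p = 3.55e-05). PCNA was 2.73 times higher in NotchDN than in NotchIC midguts (1.45 ± 0.20, adjusted p = 0.000247). RfC3, RfC38 and Gnf1 rose by 1.30, 1.05 and 1.01.

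RPA2 rose by 1.26 ± 0.19 (adjusted p = 0.000459) and RnrL by 1.32 ± 0.27 (adjusted p = 0.00491), both with separate arrays. In lagging strand maturation DNAlig1 came first, with log2 signals of 6.92, 8.11, 7.47 and 7.32 in NotchDN midguts, 6.0, 6.67, 6.09 and 6.38 in NotchIC midguts, 6.59, 7.49, 7.15 and 6.65 in RafGOF midguts and 5.55, 6.16, 5.85 and 5.79 in WT midguts. Its NotchDN and NotchIC arrays did not overlap (1.17 ± 0.25, adjusted p = 0.00657), and Fen1 rose by 1.14.

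**Figure D3:**
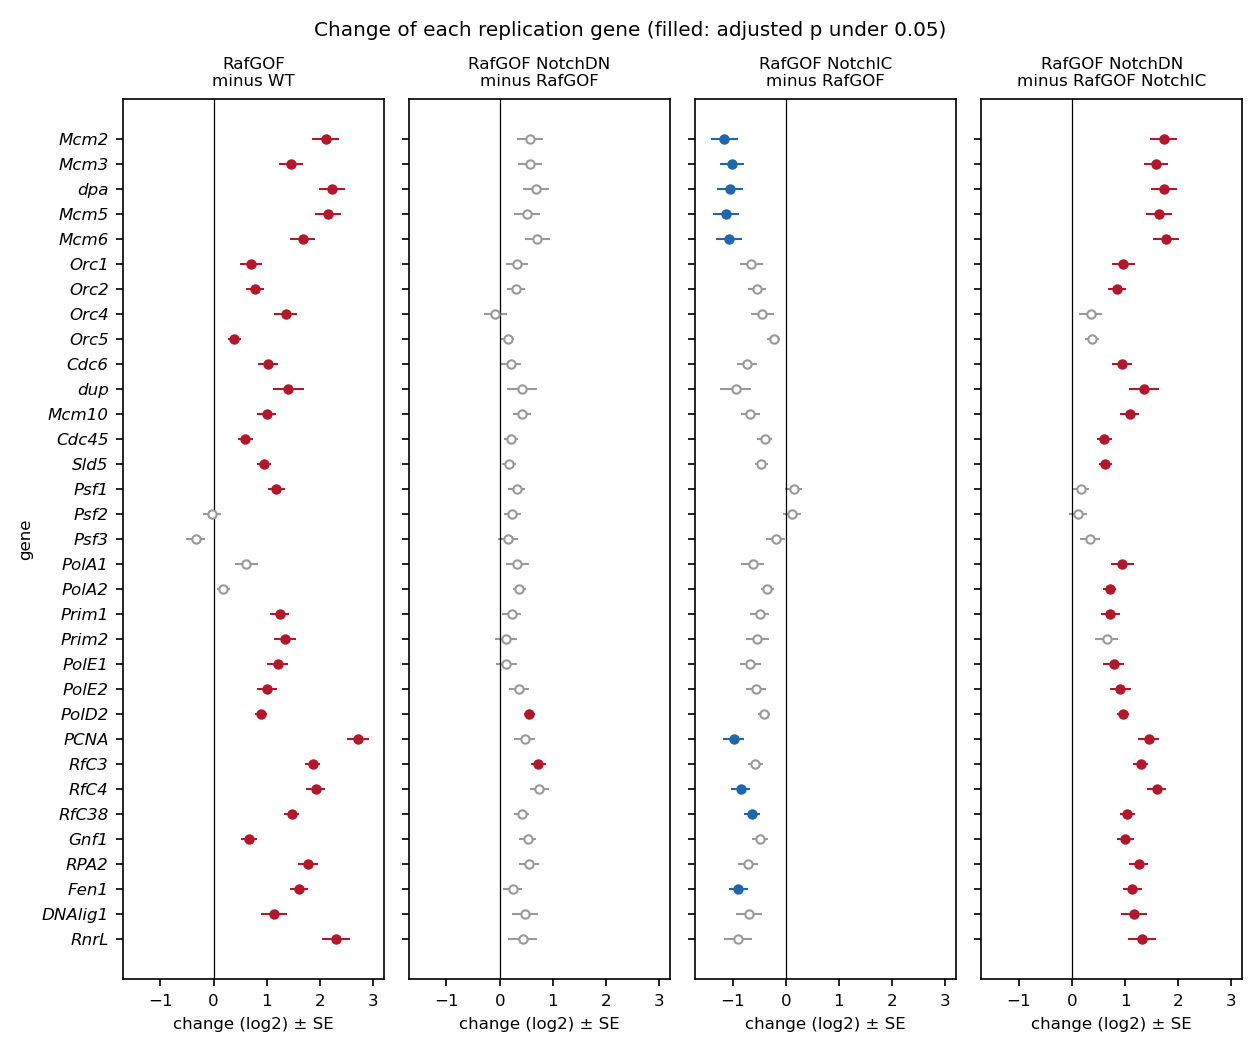
Change of each of the 33 genes in the 4 comparisons, in log2 units with the standard error of the limma fit over 16 arrays. Filled points passed at an adjusted p under 0.05 (red higher, blue lower) and open points did not: 29 are filled for RafGOF minus WT, 2 for NotchDN minus RafGOF, 9 for NotchIC minus RafGOF and 27 for NotchDN minus NotchIC.

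In NotchDN over WT midguts 31 of 33 genes rose and none fell, against 14.6% of all genes called higher and 12.1% called lower, with no member lower at an unadjusted p under 0.05. Psf2 and Psf3 did not pass, at 0.21 and -0.18. The median change was 1.47, and 27 genes rose by 2 times or more (4.78% of all genes), led by PCNA at 3.18 ± 0.20 or 9.07 times (adjusted p = 3.64e-08). Each omission of a single array left the count at 31.

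RafGOF over WT and NotchDN over NotchIC use no array in common. Both come from the same fit, however, which gives a gene the same standard error in each, so their calls are not independent. A call in both was made for 25 genes, that is for 25 of 29 in the first and 25 of 27 in the second, whereas 30.9% of all genes called higher in RafGOF over WT were also higher in NotchDN over NotchIC. Orc4, Orc5, Psf1 and Prim2 passed just in the first, and PolA1 and PolA2 just in the second, and whether their changes differ between the comparisons was not tested. With the replicate number as a block, Orc5 and Prim2 also passed in NotchDN over NotchIC and PolA1 in RafGOF over WT, which made 28 genes with a call in both, while 35.4% of all genes called higher in RafGOF over WT in that fit were also higher in NotchDN over NotchIC. Across the 33 genes the sizes of both changes correlated at Pearson r = 0.751 (Spearman rho = 0.761), and across all 11982 genes at r = 0.364 (rho = 0.298). These are descriptions across genes, which are not independent replicates, and both axes read the same probe sets.

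**Figure D4:**
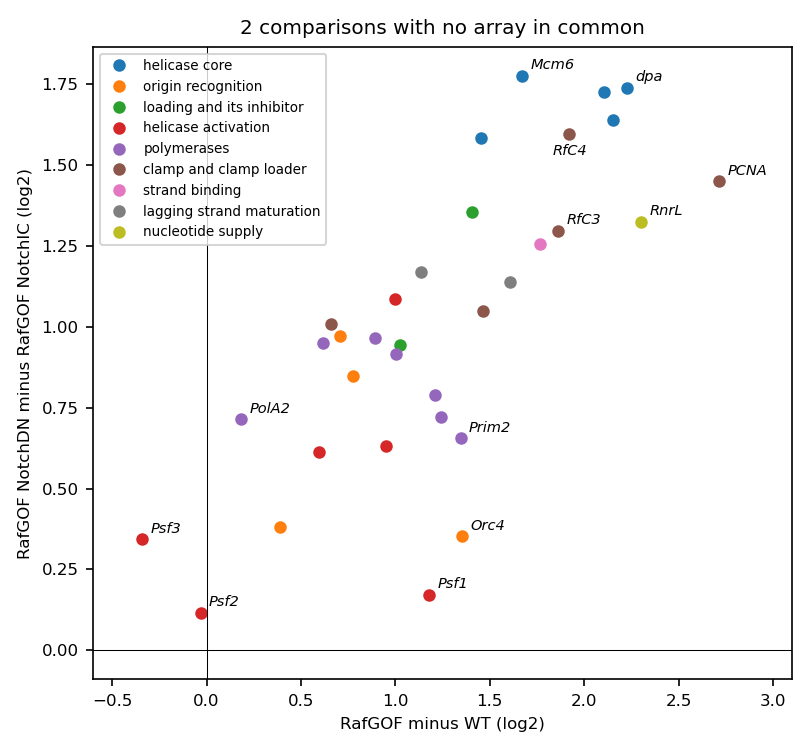
Change of each replication gene in NotchDN minus NotchIC (vertical, log2) against its change in RafGOF minus WT (horizontal, log2), coloured by role. The Mcm helicase genes, PCNA, RnrL and RfC4 stand at the upper right, and Orc4 and Psf1 lie low at the right. Psf2 lies near 0 on both axes, and Psf3 lies left of 0 at about the height of Orc4.

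Deviations of the 33 genes between arrays of one group were also correlated. For each gene the deviations of the 16 arrays from their group means were set against those of each other gene, and the median correlation over the 528 pairs was 0.581, with 474 pairs (89.8%) above 0. Over all pairs of the 11982 genes the median was 0.0071, with 50.6% above 0, and every pair was read on the same arrays. The mean deviation of all genes from the group mean lay between -0.033 and 0.032 on every array. NotchDN replicate 1 lay below its group mean for all 33 genes, by 0.375 on average, and NotchDN replicate 2 lay above it for 29. RafGOF replicate 2 was above its group mean for 30 genes, by 0.371 on average, while RafGOF replicates 1 and 4 were above it for 2 and 3. In NotchIC midguts 10 genes on replicate 2 were above the group mean, and deviations in WT midguts stayed between -0.13 and 0.077 on average.

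Other genes of S phase, taken from 3 lists, gave further values. Of all genes, 14.9% rose in RafGOF over WT midguts, and 6.09% rose and 5.47% fell in NotchDN over NotchIC midguts. In NotchDN over RafGOF midguts 0.818% rose and 0.551% fell, and in NotchIC over RafGOF midguts 1.61% fell. With the replicate number as a block, 2.14% rose in NotchDN over RafGOF and 4.55% fell in NotchIC over RafGOF midguts. Of 17 measured genes of S phase entry 8 rose in RafGOF over WT midguts, and 14 with the replicate number as a block, a fit in which 22.5% of all genes rose. CycE, the cyclin that starts S phase, rose by 2.51 ± 0.27, its kinase Cdk2 by 1.14 ± 0.15, fzr by 1.09 ± 0.18, and chif, the activating subunit of the Cdc7 kinase, by 0.89 ± 0.19. In NotchIC over RafGOF midguts E2f2, a repressive E2F, changed by -0.58 (adjusted p = 0.0471) as the single call, and 5 genes fell with the block. In NotchDN over NotchIC midguts 5 rose and 1 fell, and 9 rose with the block (10.6% of all genes), CycE by 1.27, Cdk2 by 0.74 and E2f2 by 0.63.

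The exception was fzr, which encodes the Cdh1 activator of the anaphase-promoting complex and is needed in flies for the switch to endocycles. It changed by -1.09 ± 0.18 in NotchDN over RafGOF midguts (adjusted p = 0.00637), the single call of its list there, and by -1.19 ± 0.18 in NotchDN over NotchIC midguts (adjusted p = 0.000561). Against WT it was higher by 1.09 in RafGOF and by 1.19 in NotchIC midguts, and differed by 0.000994 in NotchDN midguts (adjusted p = 0.999).

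Of 16 measured genes of chromatin assembly and nucleotide supply, 13 rose in RafGOF over WT midguts. The leaders were dUTPase at 2.99 and Ts, the thymidylate synthase, at 2.41, which supply thymidine nucleotides and keep uracil out of DNA, then the histone chaperone asf1 at 1.66 and the deoxynucleoside kinase dnk at 1.26. In NotchIC over RafGOF midguts 4 fell (7 with the block), namely dUTPase at -1.30, Ts at -1.21, Ssrp, of the FACT histone chaperone, at -0.73 and the histone mRNA binding protein Slbp at -0.51. Ts was the one call in NotchDN over RafGOF midguts, at 1.01 (adjusted p = 0.0202). In NotchDN over NotchIC midguts 9 rose, among them Ts by 2.22, dUTPase by 2.01, Ssrp by 1.09 and its FACT partner dre4 by 0.92.

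Of 26 measured genes of fork protection and checkpoint, 10 rose in RafGOF over WT midguts, and 18 with the block. Msh6 of mismatch repair rose by 1.65, grp, the fly Chk1 kinase, by 1.38, Ctf4, which ties polymerase alpha to the helicase in yeast, by 1.09 and cutlet, of the alternative clamp loader, by 1.02. In NotchIC over RafGOF midguts Msh6 and the translesion polymerase PolH fell, at -1.08 and -0.58, and 3 genes fell with the block. Claspin, the checkpoint mediator, was the one call in NotchDN over RafGOF midguts at 0.55 (adjusted p = 0.0476), and 2 passed with the block. In NotchDN over NotchIC midguts 6 rose (13 with the block), led by Msh6 at 1.83, PolH at 0.92, Claspin at 0.86 and lok, the fly Chk2 kinase, at 0.82.

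Markers of gut cell types also changed, not all of them along with the replication genes, and their part in these results was not tested. Of 9 stem cell and enteroblast markers 5 rose and 1 fell in RafGOF over WT midguts, while against RafGOF midguts 2 rose in NotchDN and 1 fell in NotchIC. Of all genes, 14.9% rose and 10.1% fell in RafGOF over WT midguts. Against RafGOF midguts 0.818% of all genes rose in NotchDN and 1.61% fell in NotchIC. The list mean of single arrays was 7.22 to 7.87 in NotchDN, 6.53 to 6.71 in NotchIC, 6.88 to 7.30 in RafGOF and 6.29 to 6.43 in WT midguts. The progenitor factor esg changed by 2.49 in RafGOF over WT, by -1.26 in NotchIC over RafGOF and by 2.14 in NotchDN over NotchIC midguts. The marker that fell in RafGOF over WT was mira, at -1.57 (adjusted p = 4.32e-05), and the one that fell in NotchDN over NotchIC was klu, at -1.09 (adjusted p = 0.000963). In NotchIC over RafGOF klu changed by 0.66, which did not pass (adjusted p = 0.0683) but did with the block (adjusted p = 0.00448). Of 27 enterocyte products, 21 fell in RafGOF over WT midguts, and their mean was 10.80 to 11.26 in NotchDN, 10.76 to 12.03 in NotchIC, 9.87 to 10.84 in RafGOF and 12.44 to 12.80 in WT midguts. The highest NotchIC value was that of replicate 2, the array on which 10 of 33 replication genes exceeded the group mean. The lowest RafGOF value was that of replicate 4, on which 3 of 33 did. A link between the lists within groups was not tested. Between NotchDN and NotchIC midguts the enterocyte products overlapped, with 2 higher and 2 lower, and the stem cell list did not, with 5 higher and 1 lower. Of all genes, 6.09% were higher and 5.47% lower in NotchDN over NotchIC midguts.

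Ovary tissue also holds replicating cells, and its markers were checked. The mean of 30 ovary and germline genes on single arrays was 5.49 to 5.63 in NotchDN, 5.45 to 5.54 in NotchIC, 5.41 to 5.58 in RafGOF and 5.33 to 5.66 in WT midguts. In RafGOF over WT midguts 2 of the 30 rose, piwi by 1.5 and del by 0.90, and in NotchDN over NotchIC midguts 2 rose, piwi by 1.71 and spn-E by 0.32. Of all genes, 14.9% rose in the first of these comparisons and 6.09% in the second. On single arrays vas lay between 4.03 and 4.18 in NotchDN, 3.93 and 4.15 in NotchIC, 4.0 and 4.23 in RafGOF and 4.09 and 4.35 in WT midguts. Visceral muscle genes went the other way from the replication genes in RafGOF over WT midguts, where 7 of 11 fell and 1 rose, and of 8 enteroendocrine genes 3 fell and none rose. In that comparison 10.1% of all genes fell and 14.9% rose.

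**Figure D5:**
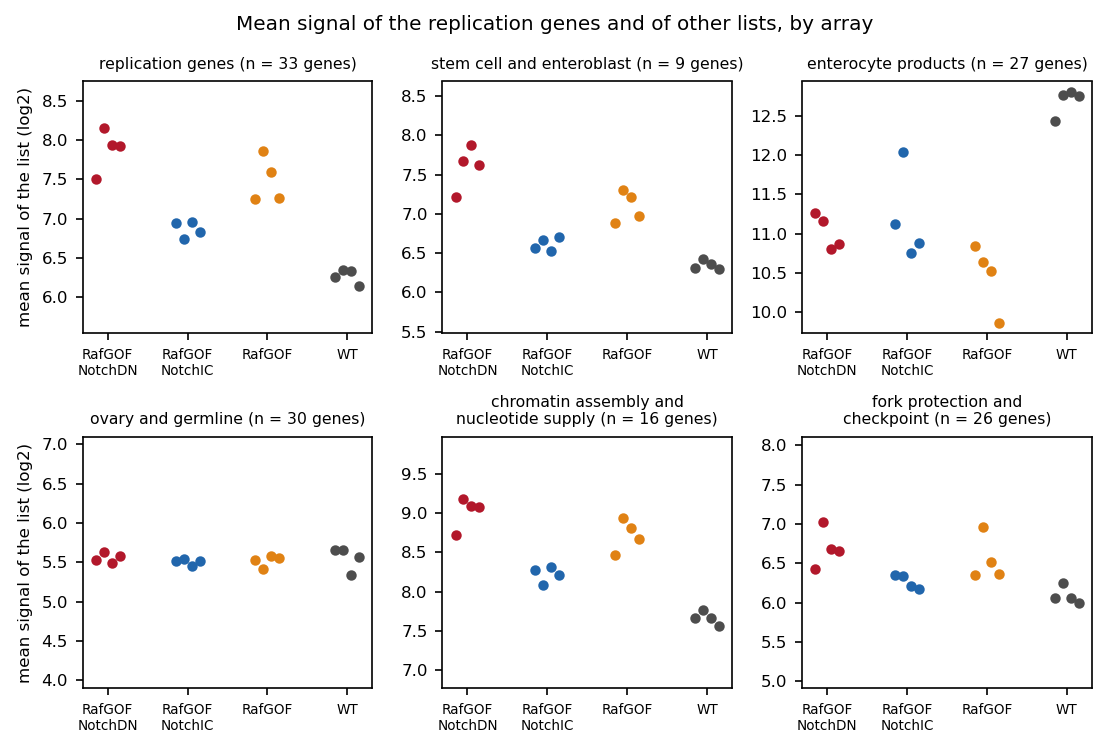
Mean log2 signal of the 33 replication genes and of 5 other gene lists on each array, by genotype, with replicates 1 to 4 from left to right. Each panel spans the same number of log2 units. The replication, stem cell, chromatin assembly and fork protection panels share the order NotchDN, RafGOF, NotchIC, WT in their group medians. The enterocyte panel is highest in WT, and the ovary panel is flat between 5.33 and 5.66.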

How the data were processed

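The authors deposited RMA signals on the log2 scale for 18952 probe sets (RMA per the submitters' processing notes). Its software, version and genome build are not stated in these sources. Nothing was normalized again. Leaving out 183 control probe sets gave 18769 to test. By the platform annotation 13647 of them carry 1 gene symbol, 402 several and 4720 none. Each of 11982 genes was read from its probe set of highest mean.

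The limma package (3.58.1, R 4.3.3) fitted the 4 group means over all 16 arrays, with 12 residual degrees of freedom and empirical Bayes moderation. P-values are two-sided, with Benjamini-Hochberg adjustment over all tested probe sets within a comparison. Whether arrays of a group come from separate flies is unstated in the labels, so that p-values reflect spread between arrays alone, and how many arrays there are limits the precision.

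The members, lists, tests and alternatives were chosen with earlier results of these data known. Values of every array are given for the called gene with the largest change of each role in each of the 4 main comparisons and for PCNA. Of the other S phase lists, up to 4 called genes by size are named in each comparison, or all where 5 or fewer passed. RPA1, RPA2's partner outside the list, and the single markers of cell types were named after their values were seen.

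Replicate numbers come from the labels, which do not explain them. As a check of pairing, deviations from group means were correlated between arrays with the same number. The 4 correlations ran from 0.127 to 0.594 between RafGOF and WT, from 0.494 to 0.785 between NotchDN and RafGOF, from 0.104 to 0.528 between NotchIC and RafGOF, from 0.157 to 0.529 between NotchDN and NotchIC, from 0.155 to 0.668 between NotchDN and WT, and from 0.0489 to 0.574 between NotchIC and WT. All 4 exceeded 0.1 except in the last comparison. The main calls do not use this pairing, and the replicate number as a block was run as an alternative. No sequences are printed, since no sequence table was used here.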

Additional observations from a re-analysis of the deposited data

Results flagged for a closer look

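Within the groups of 4 arrays, 10 of the 136 sets of values had 1 array far from the other 3 (the gap to the nearest array, as a share of the whole range, exceeded Dixon's 95% critical value), and chance alone flags about 1 in 20 such sets.

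On NotchDN replicate 1, RfC4 read 8.87 against 9.56 to 9.59 on the other NotchDN arrays, PolE1 read 6.62 against 7.15 to 7.26, and PolD2 read 8.50 against 8.80 to 8.85. On NotchDN replicate 2, PolA1 read 7.44 against 6.71 on each of the others. NotchIC replicate 2 was low for RPA2 at 7.61 against 8.35 to 8.43, for RfC3 at 6.44 against 6.91 to 7.0, for RfC38 at 7.96 against 8.15 to 8.16 and for Psf2 at 8.08 against 8.58 to 8.67. In WT midguts Orc4 on replicate 1 read 4.95 against 5.13 on each of the others, and RPA1 on replicate 2 read 9.43 against 8.56 to 8.71.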

How the results depend on the processing

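Single-gene changes kept their direction and their side of the threshold in 1478 of 1584 values recomputed with another normalization, filter, moderation, block or set of arrays, and in 1486 of 1584 values with 1 array left out. The counts of genes that rose in RafGOF over WT, NotchDN over NotchIC, NotchDN over WT and NotchIC over WT stayed within 1.5 times under every alternative run on them. For the other counts, the cause of a shift was not tested.

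For genes higher in NotchDN over RafGOF (2), the count was 4 after quantile normalization, 0 after median centring, 0 with only the arrays of both groups, 6 with the replicate block and 1 without the arrays numbered 2. For genes lower in NotchIC over RafGOF (9), it was 15 after quantile normalization, 2 after median centring, 5 with only the arrays of both groups, 23 with the replicate block, 0 without the arrays numbered 2, and 5 with these left out and the replicate block, a setting chosen after seeing the data. Genes lower in RafGOF over WT (0) became 1 after quantile normalization, and genes lower in NotchIC over WT (0) became 1 after quantile normalization and 1 with the replicate block, in each case Psf3. The replicate block moved no other count beyond 1.5 times. In NotchIC over WT, where the numbers were not taken as pairs, 19 genes were higher with the block, with Mcm6, PolE2 and DNAlig1 added to the 16. Of all genes, 17.6% were higher there with the block, against 9.98% in the main fit. Mcm3 passed in NotchIC over WT with the block and without the arrays numbered 2 (adjusted p = 0.0328).

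With 1 array left out, genes higher numbered 27 to 30 in RafGOF over WT, 0 to 3 in NotchDN over RafGOF, 25 to 28 in NotchDN over NotchIC, 31 in NotchDN over WT and 12 to 17 in NotchIC over WT. Genes lower numbered 0 to 12 in NotchIC over RafGOF and 0 to 1 in NotchIC over WT, and 0 in the others.

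Signs turned just for changes near 0 that never passed. With 1 array left out, Psf2 ran from -0.12 to 0.074 in RafGOF over WT and from -0.019 to 0.22 in NotchDN over NotchIC, Orc4 from -0.24 to 0.11 and Prim2 from -0.013 to 0.35 in NotchDN over RafGOF, and Orc1 from -0.074 to 0.18 and PolA1 from -0.087 to 0.078 in NotchIC over WT. After median centring Psf2 was 0.0053 in RafGOF over WT and PolA1 0.046 in NotchIC over WT, and after quantile normalization PolA1 was 0.015 and Psf2 -0.031 in NotchIC over WT.

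The array number limits the precision, each gene rests on 1 probe set, and log2 signals near the array background compress changes. Rescaling moved the median of all probe sets by at most 0.051.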
